A study of Caenorhabditis elegans and Caenorhabditis briggsae and Caenorhabditis remanei with 48 samples.

Results

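The C. elegans transcripts described here were at least 8-fold more abundant in developing larvae than in diapause larvae, both as mRNA and as ribosome protected fragments (RPFs). They were chosen by that difference itself. A transcript was a member if its mean normalised signal over both states was at least 50 in each assay and if the log2 ratio of the developing to the diapause mean was at least 3 in each assay. Of 21035 transcripts found in both tables, 12116 had a mean signal of at least 50 in both assays, and 123 of these also met both fold limits. 3 of them are not described here, because the rule leaves out transcripts that the study named, and 120 members remained.

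The study sequenced 48 libraries from 4 Caenorhabditis species, with 3 libraries for each species, state and assay. The C. elegans larvae were of the N2 strain, hatched in S-complete liquid medium at 20 C. Diapause larvae were starved first-stage (L1) larvae, collected after 24 h without food. Developing larvae had been starved for the same 24 h and then fed E. coli HB101 for 3 h. RNA came from whole larvae, so fewer cells of a type and less RNA per cell cannot be told apart. Values are normalised reads per coding sequence. They are relative to the other transcripts of a library and are not scaled to the length of the coding sequence.

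A newly hatched C. elegans larva that finds no food arrests as an L1 larva. It resumes post-embryonic development when it is fed. In ribosome profiling, the stretches of mRNA covered by ribosomes are isolated and sequenced, so that RPF abundance reflects both the amount of an mRNA and how heavily it is translated. Translation efficiency (TE) is the ratio of RPF to mRNA abundance. The files name transcripts by protein identifier and give no gene names. What a protein is known to be is therefore given only where the study's functional term tables list its identifier. In the copy used, where some lists are cut short, 47 of the 120 members carried such a term.

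The deposited tables hold the mean of the 3 libraries of a state. Because each mean is a sum of whole reads divided by 3 library scales, which show in the lowest values, the reads of the single libraries could be solved from it, with 1 solution for every mean of every member. The 3 libraries of a state are called a, b and c from the deepest to the shallowest, separately for each state and assay. The letters do not pair a library with one of another state or assay. Reads solved per library ranged from 4293094 to 19574065 for mRNA and from 3758447 to 10754080 for RPFs, where a read in several isoforms counts once for each.

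Among the 12116 transcripts, 128 (1.06%) were at least 8-fold higher in developing larvae as mRNA and 349 (2.88%) as RPFs, while 123 (1.02%) were so in both. Most transcripts that met the mRNA limit thus also met the RPF limit. The members' mRNA log2 change had a median of 3.85, with a range of 3.01 to 8.74, and their RPF log2 change had a median of 4.40, with a range of 3.01 to 9.72. Over all 12116 transcripts the medians were 0.04 for mRNA and 0.01 for RPFs. A change of 32-fold or more was seen for 31 members in mRNA and for 39 in RPFs. Since these values chose the members, they are given as a description, without a test.

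**Figure D1:**
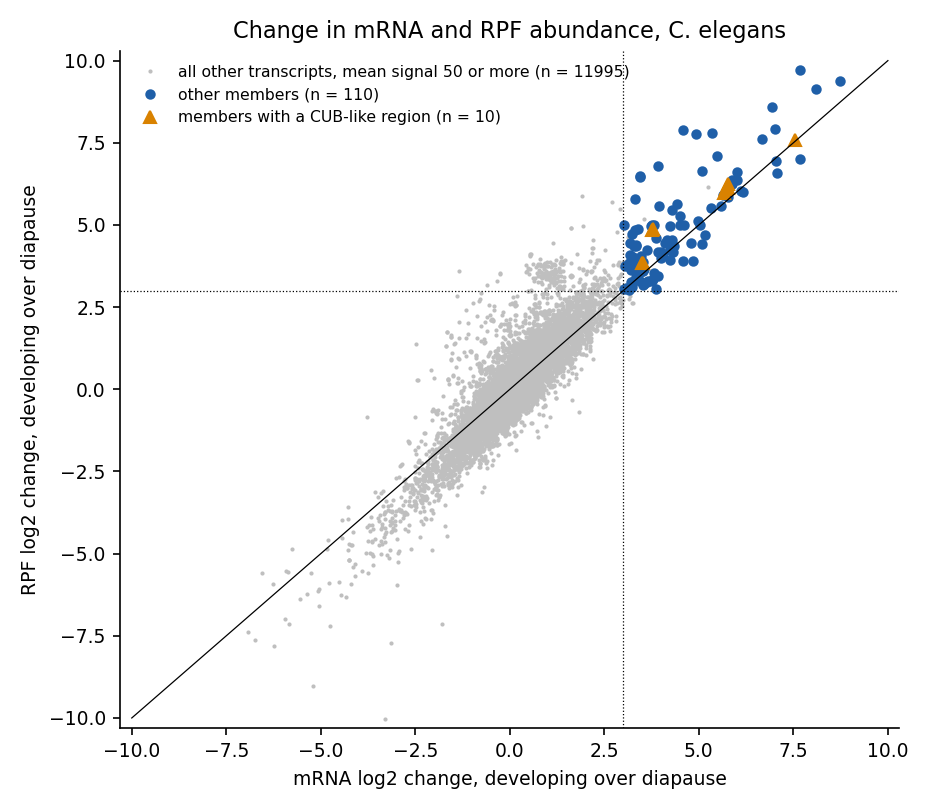
Each point is 1 transcript with a mean signal of at least 50, with its mRNA log2 change on the x axis and its RPF log2 change on the y axis (developing over diapause). Dotted lines mark the limits of 3 and the solid line marks equal change. Grey points include the 3 left out; 10 members with a CUB-like region are shown as triangles, and the members extend to 8.74 in mRNA and 9.72 in RPFs.

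In every one of the 120 members, all 3 developing libraries lay above all 3 diapause libraries in both assays. The same held for 28.2% of 11875 transcripts whose libraries could all be solved, and for 36.1% in mRNA and 35.7% in RPFs taken alone. The rule itself pushes the members towards this pattern. The lowest developing library was at least 8-fold above the highest diapause library in both assays for 78 of the 120. The median of this smallest ratio was 10.6 for mRNA and 13.8 for RPFs, and the lowest was 3.57.

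The rule fixes that the members were low in diapause relative to developing larvae, but it sets no upper limit on the diapause level. Those that were lowest passed the signal limit of 50 only through their developing libraries, so the diapause levels are given as a description. The median diapause mean was 32.6 normalised reads for mRNA and 19.9 for RPFs. As mRNA, 25 members had a diapause mean under 10 and 1 had a mean under 1. In RPF data, 38 members had a diapause mean under 10 and 4 had a mean under 1. A transcript with a mean of at least 50 over both states and under 10 in diapause is at least 8-fold higher in developing larvae by arithmetic. No member was without diapause reads in either assay. 3 members had 3 or fewer RPF reads over the 3 diapause libraries, and 10 had at least 1 diapause RPF library without a read. At the other end, 33 members had a diapause mRNA mean of 100 or more, and the highest stood at 1202. Most members were thus present in diapause at a low level, and only a few can be called switched on from near 0.

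The developing levels were also tied to the rule, through the signal limit. The members' median developing mean was 663 for mRNA, against 411 over all 12116, and 514 for RPFs, against 221. Together the 120 held 0.0851% of the summed mRNA signal in diapause and 1.08% in developing larvae. For RPFs the share was 0.118% in diapause and 1.54% in developing larvae. Since each member was chosen for a developing mean at least 8 times its diapause mean, a higher share of about this size was fixed by the rule.

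CE30269 had the largest RPF change. Its RPF values were 3.11, 2.92 and 0 in the diapause libraries and 1572, 2015 and 1510 in the developing libraries, an 846-fold difference of the means. Its mRNA values were 7.35, 15.5 and 20.2 in diapause and 1749, 3196 and 3817 after feeding, a 203-fold difference. No library of one state came near those of the other. This transcript went from 9 RPF reads in all diapause libraries to 4867 in the developing ones. From these pooled reads its RPF difference was 689-fold, with an exact 95% counting interval of 363 to 1508 (Clopper-Pearson).

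CE21539 had the largest mRNA change and the second largest RPF change. Diapause mRNA libraries held 0.919, 5.89 and 10.6 normalised reads, and developing libraries held 2317, 2513 and 2597, a 426-fold difference. RPF values went from 3.73, 1.46 and 2.77 to 1484, 1548 and 2213, a 659-fold difference. The developing libraries lay close together, and the diapause mRNA libraries differed by over 10-fold on 21 reads in all.

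CE18892 was the nearest to absent in diapause, with 2 mRNA reads and 1 RPF read over the 3 libraries of each assay. Developing libraries held 111, 128 and 87.1 normalised mRNA reads, and 141, 105 and 166 normalised RPF reads. From the pooled reads, the RPF difference was 505-fold, with an exact 95% interval of 90.1 to 19982 (Clopper-Pearson) that covers counting error only. The mRNA difference was 253-fold, with an interval of 69.4 to 2101. The size of such a fold rests on very few reads, although the difference itself spans all 12 libraries.

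A similar limit applies to CE18561 and CE24064, with 2 and 3 diapause RPF reads. CE18561 went from 0, 0.729 and 1.38 to 257, 256 and 308 normalised RPF reads. Its RPF difference from pooled reads was 493-fold, with an interval of 136 to 4080. CE24064 went from 0, 2.19 and 0 to 154, 131 and 195, with 192-fold from pooled reads and an interval of 65.4 to 937. Both were at 0 in at least 1 diapause RPF library, and both had diapause mRNA reads in all 3 libraries.

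CE17176 and CE42613 also had empty diapause RPF libraries. RPF values of CE17176 were 2.49, 0 and 0 in diapause against 251, 186 and 168 in developing larvae. CE42613 had 0, 3.65 and 1.38 against 427, 324 and 367. Their mRNA log2 changes were 7.01 and 5.36. None of these transcripts, nor CE30269, CE21539 or CE18892, carried a functional term in the tables used, where some lists are cut short.

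Of the 10 largest RPF changes, CE17385 had the highest developing RPF level. It went from 9.33, 16.0 and 13.8 to 2817, 2355 and 2450 normalised RPF reads, and from 18.8, 19.2 and 22.2 to 2322, 2105 and 1728 as mRNA. Its 47 diapause RPF reads make its 194-fold RPF difference better measured than those above. The 10 largest mRNA changes included 7 of these transcripts along with CE19671, CE40225 and CE40226, at mRNA log2 changes of 7.66, 7.05 and 7.06 and RPF log2 changes of 7.001, 6.94 and 6.59.

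**Figure D2:**
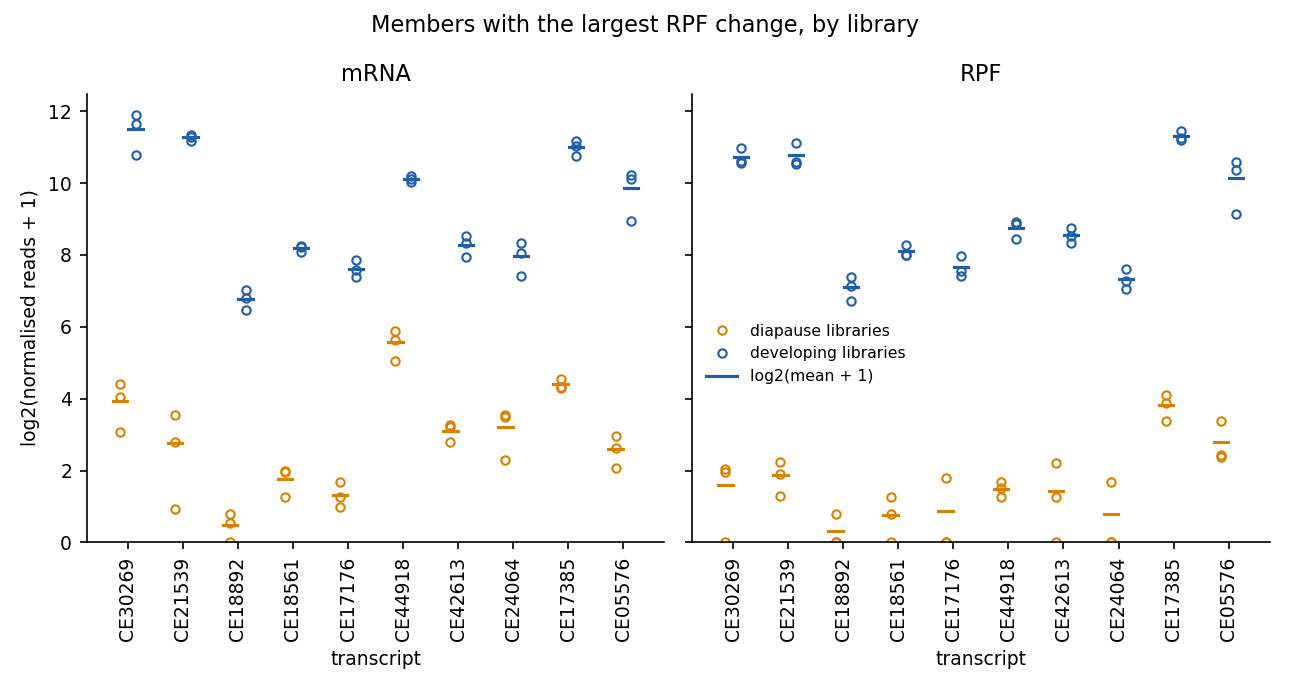
The 10 members with the largest RPF change, with mRNA in the left panel and RPFs in the right. Open points are the 3 libraries of a state on a log2(normalised reads + 1) scale, and bars are the state means on that scale; in CE18892 the diapause RPF libraries read 0, 0.729 and 0 and the developing libraries 141, 105 and 166.

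The most abundant members in developing RPF data started, except for CE10938, from much higher diapause levels. CE18030 led, with RPF values of 473, 331 and 395 in diapause and 9940, 8421 and 7658 in developing larvae. It carries an RNA recognition motif, a fold that binds single-stranded RNA. Its mRNA went from 1097, 1358 and 1152 to 11517, 10241 and 10947, so that the RPF difference of 21.7-fold stood beside a smaller mRNA difference of 9.07-fold. CE18307, listed under translation and ribosomal structure, had RPF values of 503, 472 and 424 in diapause and 8189, 8054 and 7561 after feeding. Its 3 developing RPF libraries lay within 10% of each other.

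CE02283, listed in the nucleolus, as a constituent of the ribosome and also under the spliceosome and RNA splicing, moved by nearly the same factor in both assays. Its mRNA was at 475, 565 and 576 in diapause and at 8793, 12235 and 11738 in developing larvae. RPF values went from 394, 338 and 347 to 6707, 7885 and 7594. The differences were 20.3-fold and 20.6-fold.

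CE10938 is listed as a structural constituent of the cuticle, the collagen-rich outer layer that the larva secretes. Its mRNA values were 52.8, 120 and 136 in diapause and 5067, 7417 and 7570 in developing larvae. RPF values were 29.8, 80.2 and 45.7 in diapause and 4221, 5281 and 5722 after feeding, a 97.8-fold difference. The others among the 10 most abundant were CE04010, CE27242, CE36757, CE30604, CE05287 and CE17940, with developing RPF means from 3650 to 5222.

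**Figure D3:**
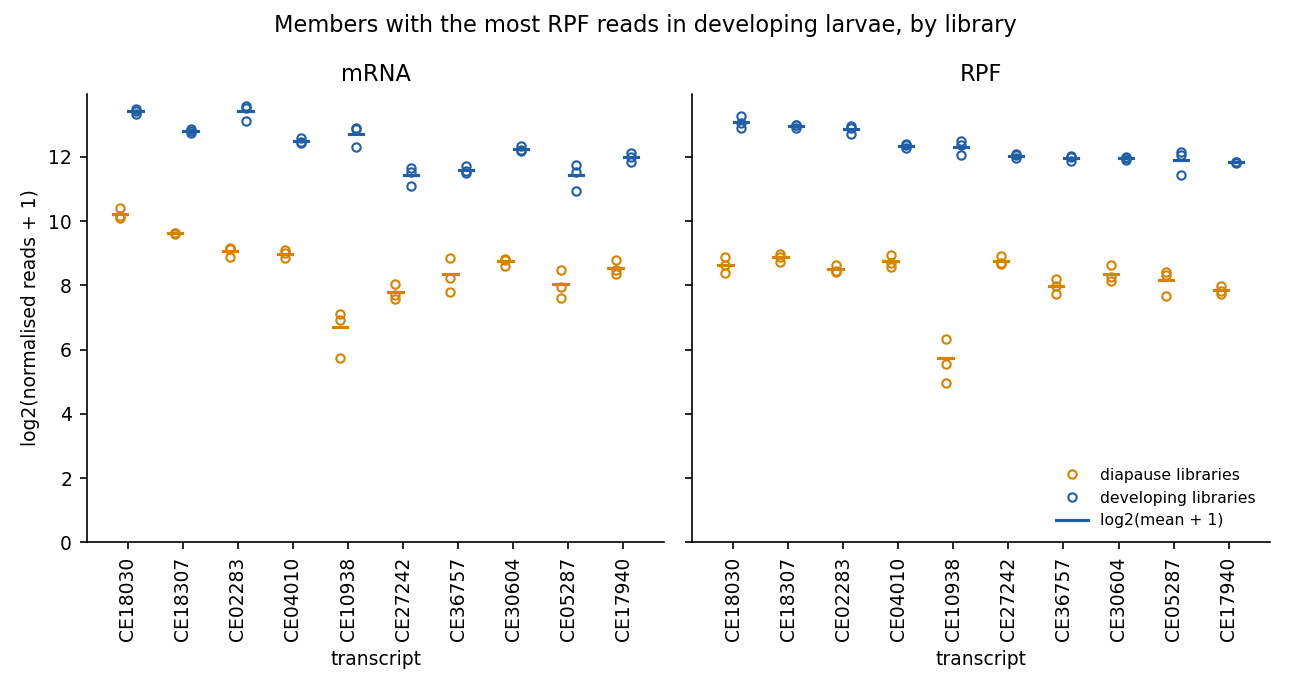
The 10 members with the highest developing RPF mean, drawn as in the plot of the largest RPF changes, with log2(normalised reads + 1) on the y axis. All except CE10938 had diapause means of 220 or more in mRNA and 230 or more in RPFs, and in no member do the states overlap.

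The largest group with a shared term was that of the CUB-like region, a sequence feature of predicted secreted proteins in nematodes. 10 of the 41 transcripts listed with it were members, and 20 of the 41 had a mean signal of at least 50 in both assays. Over all 12116 such transcripts, 1.02% met both fold limits and 2.88% met the RPF limit. The list was drawn by the study from transcripts with higher RPF levels in these same developing libraries, as were all the lists below, so its direction is not independent evidence. Over its 20 transcripts the median log2 change was 3.19 for mRNA and 3.86 for RPFs, with lowest values of 0.43 and 0.74. The members are fewer than 10 independent measurements. CE38511, CE09922, CE38513 and CE38512 had nearly equal reads in all 12 libraries, as did CE40917 and CE31888, and reads that fit several isoforms are counted for each, so the 10 reduce to 6.

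CE05576 had the largest change of the group. Its RPF values were 9.33, 4.37 and 4.15 in diapause and 1526, 562 and 1310 in developing larvae, a 190-fold difference. Its mRNA values were 3.22, 5.16 and 6.75 in diapause and 1111, 1205 and 495 after feeding, a 186-fold difference. The developing libraries were spread by over 2-fold, far less than the gap between the states.

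The set around CE38511 had mRNA log2 changes of 5.73 to 5.77 and RPF log2 changes of 6.11 to 6.26. CE38511 itself went from 6.22, 6.56 and 6.92 to 573, 427 and 505 normalised RPF reads. The pair CE40917 and CE31888 changed less, with RPF log2 changes of 3.85 and 3.85, from RPF levels in diapause of 28.4 to 59.7. CE16242 had log2 changes of 3.79 in mRNA and 4.88 in RPFs, with developing RPF values of 185, 235 and 222.

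CE18748 and CE19711 were the 2 members whose developing libraries differed most. CE18748 read 748, 287 and 87.1 as mRNA and 301, 122 and 972 as RPFs in developing larvae, against 4.42 to 10.6 in the 6 diapause libraries. CE19711 read 417, 207 and 100 as mRNA and 273, 99.5 and 379 as RPFs, against 2.49 to 24.3 in diapause. In both, every developing library still lay above every diapause library. Without the highest developing library, the RPF log2 change of CE18748 was 4.84 and its mRNA log2 change 4.68, in place of 5.98 and 5.68.

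**Figure D4:**
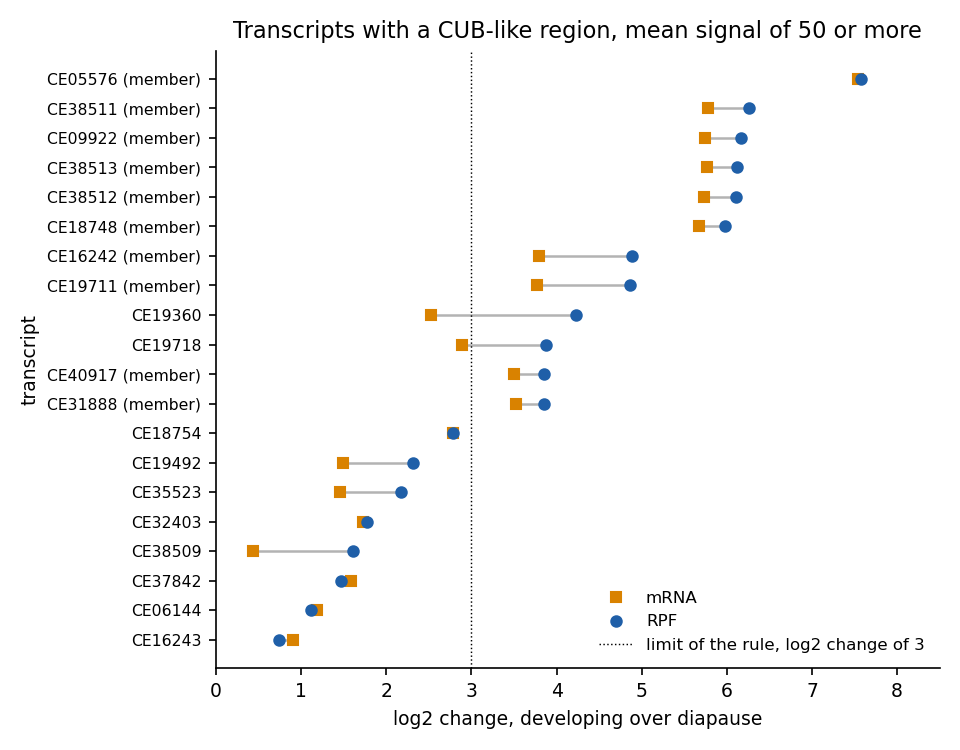
The 20 transcripts listed with a CUB-like region that had a mean signal of at least 50, ordered by RPF log2 change. Squares are mRNA and circles RPF log2 changes, developing over diapause, and the dotted line is the limit of 3; the 10 members run from 3.49 to 7.57 and the lowest transcript, CE16243, stands at 0.90 and 0.74.

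Members tied to RNA and to the making of ribosomes formed the next group, with 9 transcripts. Their median log2 change was 3.25 for mRNA and 4.09 for RPFs, lower than in the CUB-like group, and they started from higher diapause levels. Ribosomes are assembled in the nucleolus from ribosomal RNA, which is transcribed, cut and chemically modified there, and from imported ribosomal proteins. CE36757, listed under rRNA processing, had RPF values of 292, 253 and 212 in diapause and 4166, 3730 and 4072 in developing larvae. CE19186, listed under rRNA processing and RNA modification, went from 166, 227 and 162 to 2154, 2424 and 2501.

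CE08687, listed under ribosome biogenesis, had a TE log2 change of 0.01, at log2 changes of 3.99 in mRNA and 4.01 in RPFs. CE01075, with an RNA recognition motif, stood at 3.62 and 4.23. CE38524, listed as a DEAD-box helicase and as a translation initiation factor, lay just above the limit at 3.07 and 3.10. DEAD-box helicases use ATP to unwind RNA, and one of them is part of the complex that brings ribosomes to an mRNA.

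CE12576 is listed under tRNA processing and RNA modification. Its developing mRNA libraries read 962, 2016 and 582 and its developing RPF libraries 1238, 349 and 657, against 40.0 to 44.3 and 21.8 to 48.5 in diapause. Its TE log2 change of -0.35 is smaller than the 3-fold range of its developing libraries within each assay.

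These members were set against the lists they belong to, which hold only transcripts that the study called higher in developing RPF data, and against the 1.02% of all 12116 transcripts that met both limits. Of 33 nucleolus transcripts with a mean signal of at least 50, 3 were members, and the list's median log2 change was 2.05 for mRNA and 2.82 for RPFs. Of 32 in rRNA processing, 2 were members, with medians of 2.03 and 2.74. Under the keyword ribosome biogenesis 2 of 23 were members, with medians of 1.76 and 2.82, and under RNA modification 2 of 22, with medians of 1.47 and 2.01. A separate term of the name ribosome biogenesis, which also held CE02283 and CE08687, was not among the lists counted. The lists counted so far overlap, with CE19186 on each of them and CE36757 on all except RNA modification, so they are not separate measurements. The tRNA processing list had 1 member of 30, the initiation factor list 1 of 32, the DEAD-box helicase list 1 of 37 and the chaperone list 1 of 38. Nothing is read from lists with a single member.

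13 of the 22 lists held no member. For the small and the large ribosomal subunit the medians were 1.09 and 1.15 in mRNA but 3.55 and 3.21 in RPFs, and 8 of 12 and 8 of 14 transcripts met the RPF limit while none met the mRNA limit. The aminoacyl-tRNA synthetases, which charge tRNAs with amino acids, had medians of 0.99 and 1.92, and the proteasome complex had 0.89 and 0.83. The remaining lists without a member were DNA-directed RNA polymerase activity, methyltransferase, Sm, DnaJ, rotamase, nuclear pore, DNA replication, chromatin and iron-sulfur, with median mRNA log2 changes of 0.55 to 1.502 and median RPF log2 changes of 0.83 to 1.88. In each of the nucleolus, rRNA processing, methyltransferase and iron-sulfur lists, 1 further transcript met both limits and is among the 3 not described here.

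Other members carried terms from term lists that are cut short in the copy used, so that the terms serve only to say what a protein is. Each member was placed only in the first group that its terms matched, so some also carry terms of another group. CE38524, for example, is also listed as a hydrolase. Proteases and other hydrolases numbered 4 in this way. CE02185, listed as a protease, had RPF values of 57.2, 56.1 and 70.6 in diapause and 3134, 2650 and 4366 after feeding, at mRNA values of 322, 309 and 341 and then 4360, 2980 and 2351. Its RPF difference of 55.2-fold was over 5 times its mRNA difference of 9.97-fold. CE14682, also listed as a protease and with a signal peptide, stood at log2 changes of 3.39 and 4.87, and the protease CE35894 at 6.16 and 6.002. The hydrolase CE04215 changed equally in both assays, at 4.24 and 4.24.

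Transferases also numbered 4, with the glycosyltransferases CE03878, CE04327 and CE06590, enzymes that attach sugars, at RPF log2 changes of 3.68, 4.999 and 5.65. CE38499 stood at 3.86. CE21937, with the domains of a glutathione S-transferase, an enzyme that couples glutathione to reactive compounds, went from 62.2, 86.0 and 62.3 to 1975, 1882 and 2834 normalised RPF reads. CE17789, with a thioredoxin fold, stood at log2 changes of 3.25 and 4.01.

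Among mitochondrial proteins, CE04010, CE17940 and CE37708 lay close together, at mRNA log2 changes of 3.44 to 3.54 and RPF log2 changes of 3.61 to 3.99. CE04010 had RPF values of 413, 381 and 490 in diapause and 5370, 5326 and 4969 in developing larvae. The chaperone CE27242 was the only 1 of the 10 most abundant members with a smaller RPF than mRNA change, at 3.28 in RPFs and 3.65 in mRNA. Chaperones help other proteins to fold.

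Transport proteins CE19201, CE28939 and CE35254 had RPF log2 changes of 5.12, 4.68 and 4.55. The cell cycle group held CE05753, listed under meiosis and M phase, and CE01953, CE29046 and CE30996, which had nearly equal reads in all 12 libraries. CE05753 went from 23.0, 22.6 and 29.1 to 1510, 1561 and 1446 normalised RPF reads, with all 3 developing libraries within 10% of each other. In cofactor and nucleotide metabolism, CE18701, CE32856 and CE24099 had TE log2 changes of 2.88, 1.23 and 0.11. CE36716, listed under sexual reproduction, had log2 changes of 4.28 and 5.46, and CE04325 and CE09995, listed under growth, had RPF log2 changes of 3.75 and 4.99. The other 73 members had no term in the copy used, where some lists are cut short.

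RPF change exceeded mRNA change in 91 of the 120 members, against 44.8% of 12115 transcripts with a finite TE change. The median TE log2 change was 0.35 for the members and -0.06 over all of these transcripts. A TE log2 change of at least 1 was seen for 28 members, against 5.57% of the transcripts, and of at least 2 for 8 members, against 1.84%. 5 members had a TE log2 change of -0.5 or lower, against 16.4%. Because TE is built from the same means that chose the members, no test was made of this shift. The same limits in the other direction, without transcripts the study named, gave 102 transcripts. Their median TE log2 change was -0.89, and 13 of them had a TE change above 0. An RPF change beyond the mRNA change was thus also usual among strongly falling transcripts. The study reported that translation and mRNA changes mostly acted in the same direction in each species. In diapause, the median log2 ratio of RPF to mRNA signal was -0.51 for the members and -0.70 over all the transcripts, and in developing larvae it was -0.15 and -0.68. The members' median ratio stood above that of all the transcripts by 0.19 in diapause, where 52 of the 120 members lay below the latter. In developing larvae it stood above by 0.53, with 17 members below. These ratios too are built from the means that chose the members.

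**Figure D5:**
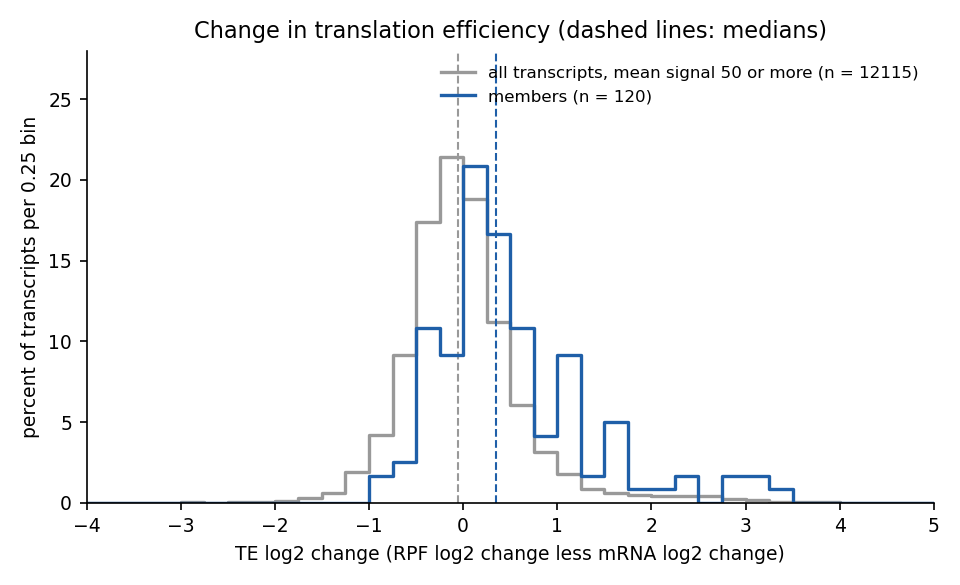
Distribution of the TE log2 change, as the percent of transcripts in bins of 0.25, for the 120 members and for all 12115 transcripts with a mean signal of at least 50 and a finite TE change. Dashed lines are the medians, 0.35 for the members and -0.06 for all.

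CE44918 had the highest TE log2 change, 3.32. Its mRNA was well measured in diapause, at 48.7, 32.4 and 57.8, and stood at 1115, 1164 and 1043 in developing larvae. Its RPF values were 1.87, 2.19 and 1.38 in diapause and 345, 487 and 462 after feeding. The RPF difference of 238-fold thus stood beside an mRNA difference of 23.9-fold. From pooled reads, with only 7 in diapause, the RPF difference was 214-fold, and its 95% counting interval was wide, at 103 to 533. It was picked as the highest of the 120, so these values are a description.

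CE31626 and CE39794, which had nearly equal reads in all 12 libraries, had TE log2 changes of 3.04 and 3.02. For CE31626, diapause mRNA libraries read 54.2, 64.8 and 56.9 while diapause RPF libraries read 1.87, 14.6 and 5.54. Developing libraries read 850, 576 and 473 as mRNA and 664, 403 and 889 as RPFs. CE18701, an NAD-binding protein by its term, and CE24064 completed the 5 highest at 2.88 and 2.85, both on 4 or fewer diapause RPF reads. Over the 8 members with a TE log2 change of at least 2, the median log2 ratio of RPF to mRNA was -2.99 in diapause and -0.10 in developing larvae. The TE change is the difference of these 2 ratios, so a step of about this size was fixed by the choice of the 8. Of the 8, CE42613 and CE30269 also had few diapause RPF reads, 6 and 9, and CE31626 and CE39794 are not separate measurements.

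The lowest TE log2 changes were small beside these. CE42667 and CE05816, with nearly equal reads in all 12 libraries, stood at -0.95 and -0.68. Their RPF libraries were the same, 13.1, 10.9 and 11.1 in diapause and 161, 196 and 168 in developing larvae. They differed only by a few mRNA reads, with 21 and 25 in diapause and 282 and 283 in developing larvae. CE20985 stood at -0.81, with diapause RPF values of 34.2, 8.75 and 12.5, and CE19671 and CE06109 at -0.66 and -0.66. All 5 were still at least 8-fold higher in developing RPF data.

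The 3 libraries of a state were less alike for the members than for other transcripts. In developing larvae, the ratio of the highest to the lowest library had a median of 1.33 in mRNA and 1.33 in RPFs for the members, against 1.22 and 1.27 over all transcripts with a mean signal of at least 50. It exceeded 2 for 11 members (9.17%) in mRNA and 16 (13.3%) in RPFs, against 2.07% and 5.59% of those transcripts. In diapause the medians were 1.495 and 1.63, against 1.21 and 1.23, at reads that were far fewer for the members. Transcripts with a library at 0 have no such ratio and were left out, so the diapause medians cover 119 members in mRNA and 110 in RPFs. Without their highest developing library in each assay, 112 of the 120 members still met both fold limits. The other 8 then lay below a log2 change of 3 in at least 1 assay, with a lowest value of 2.73.

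Close to the limits, membership turned on small differences. Just inside the mRNA limit were CE38875 at 3.01, CE15299 at 3.01 and CE04325 at 3.05. Just outside it, with RPF changes and means that passed, were CE01341 at 2.998, CE42184 at 2.99 and CE36575 at 2.99. For RPFs, CE37234 at 3.01, CE15299 at 3.04 and CE20985 at 3.06 were just inside, and CE32153 at 2.999, CE42548 at 2.85 and CE17610 at 2.76 just outside.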

How the data were processed

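Members and lists were chosen with earlier results of these data known. The authors mapped reads with Bowtie 0.12.7 to the WS230 genome and its coding sequences, kept reads with a single place in the genome, counted them for each coding sequence they matched and ran DESeq (version not given in the sources used here) for each species and assay. The signal columns used here are the authors' means of reads divided by size factors, for both states together and for each state over its 3 libraries. The tables do not name the states, which were assigned from the direction of the changes in the study's curated table of genes. All 501 transcripts of the term lists with a mean signal of at least 50 were higher in RPF data in the state taken as developing. The authors' columns of fold changes, p-values and adjusted p-values were not used. The deposited ratio of observed to fitted variance was used only to check the solved reads, because the fitted variance rests on the mean over both states.

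Log2 changes are log2 of the developing over the diapause mean, and TE changes are RPF less mRNA log2 changes. No test was made, since the contrast chose the members. To solve the reads of single libraries, the 3 steps that 1 read adds to a mean were found from low values, and each mean up to 12000 was then searched for the whole reads that give it. Between 99.2% and 99.8% of transcripts had 1 solution, and 2000 of 2000 simulated means were solved correctly for each state and assay. The simulation started only from means in the lower part of the range up to 12000. It did not start from means as high as those of CE18030, CE02283 and CE18307 in developing mRNA and RPF data. The same holds for the mean of CE10938 in developing mRNA data. Python 3.11.15 with numpy 2.4.6, numba 0.67.0 and scipy 1.17.1 was used. Counting intervals are exact 95% Clopper-Pearson intervals of the pooled reads. They cover counting error only. The 3 libraries of a group are biological replicates from 3 batches of larvae, each split into a starved and a fed part, but the solved libraries carry no batch number. Members were called near-equal when their reads lay within 1.2-fold, or within 5 reads, in each of the 12 libraries.

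Transcripts named are the 10 members with the largest RPF change, the 10 with the largest mRNA change, the 5 with the highest and the 5 with the lowest TE change, the 10 with the highest developing RPF mean, the 3 just inside and the 3 just outside each limit, and every member on 1 of 22 term lists. The other members with a term, and those with a wide spread between libraries, were named after their values had been seen. None of the identifiers was found in the gene name tables at hand, so no gene name or sequence is given. The alternatives tried were other fold and signal limits, 1 added to the means, centring on the median, other denominators, leaving out each library and counting near-equal members once.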

Additional observations from a re-analysis of the deposited data

How the results depend on the processing

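The limits of the rule decide how many transcripts are members. With a log2 change of at least 2 there were 365 members, with median log2 changes of 2.59 in mRNA and 3.03 in RPFs, 271 with a larger RPF than mRNA change, and shares of 5.39% of the summed RPF and 3.80% of the summed mRNA signal of developing larvae. With a log2 change of at least 4 these values were 50, 5.42, 5.99, 38, 0.504% and 0.399%. With a mean signal of at least 200 there were 68 members, with a median mRNA log2 change of 3.58, 58 with a larger RPF change, 10 with a diapause RPF mean under 10, and shares of 1.40% and 0.968%. A mean signal of at least 20 gave 130 members, 1 added to the means gave 117 and centring on the median gave 117. Counting near-equal members once, an alternative chosen after seeing the data, gave 109, with a median TE log2 change of 0.32. When each library was left out in turn, the number of members ranged from 116 to 128, the median mRNA log2 change from 3.77 to 3.89, the median RPF log2 change from 4.26 to 4.66, the median TE log2 change from 0.23 to 0.43, members with a larger RPF change from 86 to 97, members with a diapause RPF mean under 10 from 36 to 39, and the shares of the summed signal from 1.51% to 1.80% for RPFs and from 1.04% to 1.18% for mRNA. The mRNA and RPF medians cannot turn negative under any fold limit, and the TE median stayed above 0 in these settings. No paired analysis was possible because the deposited columns carry no replicate numbers, and the solved libraries were not matched to batches by their depth. Counting error widens the RPF folds of members with few diapause RPF reads, such as CE17176, CE19671 and CE18701 with 4 reads each, at intervals of 78.5 to 744, 65.1 to 617 and 67.6 to 641.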

Other observations

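The same limits were applied to the tables of the other 3 species, where identifiers are not paired with those of C. elegans, so that only counts can be set side by side. In C. briggsae 67 of 8482 transcripts that passed the signal limit were at least 8-fold higher in developing larvae in mRNA and in RPF data (0.79%). C. remanei had 37 of 10038 (0.369%) and C. brenneri 22 of 13139 (0.167%), against 123 of 12116 (1.02%) in C. elegans. The median mRNA log2 change of these transcripts lay between 3.77 and 3.92 and the median RPF log2 change between 4.44 and 4.63 in all 4 species. RPF change exceeded mRNA change in 51 of 67 in C. briggsae, 31 of 37 in C. remanei, 22 of 22 in C. brenneri and 94 of 123 in C. elegans. Over all transcripts that passed the signal limit, it did so in 45.0%, 41.8%, 52.1% and 44.8%. The limits use both changes, so these counts are a description. Isoforms that share reads were each counted here, and what the signal limit does at the depth and annotation of each species was not tested. Fewer transcripts met the same limits in the other direction in C. elegans (108), C. remanei (13) and C. brenneri (7), and more did so in C. briggsae (109).

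Among the 41 transcripts with a CUB-like region, 21 had a mean signal under 50 in at least 1 assay, and 5 of these were also at least 8-fold higher in developing larvae in both assays. CE19716 and CE19717 had no diapause RPF reads and developing RPF means of 12.6 and 13.2. CE19493 went from 1.29 to 38.3 normalised reads as mRNA and from 0.243 to 12.8 as RPFs. These 3 were picked out after their values had been seen.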
